A study of Mus musculus with 9 samples.

Results

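Collagens and the other core genes of the extracellular matrix were followed in lungs with and without obliterative bronchiolitis (OB). The list held 58 genes: 6 fibrillar collagens, 13 basement membrane genes, 7 other collagens, 12 glycoproteins and matricellular proteins, 8 elastic fibre genes, 6 proteoglycans and 6 enzymes that fold or crosslink collagen. Every non-control probe whose accession belonged to one of these genes was taken, which gave 86 of 56601 tested probes. For each gene 1 probe was kept, the brightest by its log2 signal averaged over all 9 arrays, and the 58 genes were among 22909 genes that could be named. Of the 58, 56 were well above background on all 9 arrays, and the exceptions were *Thbs2* and *Col15a1*.

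The study transplanted left lungs of C57BL/10 mice orthotopically into C57BL/6 mice, strains that share their major histocompatibility type and differ in minor antigens. All animals were male, and lungs were taken at day 21. Grafts with fibrotic airway lesions on histology formed the OB group (n = 3), grafts without them the non-OB group (n = 3), and left lungs of mice that had a thoracotomy only formed the sham group (n = 3). Each lung was measured on 1 Agilent 1-colour array. The labels give the same donor and recipient strains for all 9 lungs, but by the study's methods mice of both strains served as sham controls, and a supplementary picture names sham 1 as C57BL/10 and sham 2 and sham 3 as C57BL/6. The groups of grafts were formed by their histology and were not assigned at random.

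The extracellular matrix of the lung is built from fibrillar collagens, which give the airway wall and interstitium tensile strength, from elastic fibres, which recoil, and from sheets of basement membrane under epithelium and endothelium. Collagen chains are hydroxylated and folded in the endoplasmic reticulum, secreted as triple helices, trimmed and then crosslinked by lysyl oxidases. In OB, the small airways are narrowed by scar tissue that is rich in such matrix. In a sample of mixed lung tissue, fewer cells of a type and less RNA per cell cannot be told apart.

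Collagen genes often lie side by side, and the start regions of 4 members whose windows were in the table used are shown as examples, the divergent pair *Col4a1* and *Col4a2* and the type I and type III collagen genes *Col1a2* and *Col3a1*. Each sequence is the RefSeq window of GRCm38.p6 from 250 bases before to 50 bases after the annotated start, and capitals mark every CCAAT or TATAAA on either strand, the first a box found in many promoters and the second the core of a TATA box. The windows are chr6:4505368-4505667 on the + strand for *Col1a2*, chr1:45311288-45311587 on the + strand for *Col3a1*, chr8:11312777-11313076 on the - strand for *Col4a1* and chr8:11312555-11312854 on the + strand for *Col4a2*.
Col1a2: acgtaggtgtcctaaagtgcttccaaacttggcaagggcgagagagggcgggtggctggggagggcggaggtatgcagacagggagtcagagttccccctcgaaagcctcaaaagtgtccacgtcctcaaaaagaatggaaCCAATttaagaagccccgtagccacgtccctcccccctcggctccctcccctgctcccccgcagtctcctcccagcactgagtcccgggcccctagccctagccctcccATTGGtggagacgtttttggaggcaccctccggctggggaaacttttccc
Col3a1: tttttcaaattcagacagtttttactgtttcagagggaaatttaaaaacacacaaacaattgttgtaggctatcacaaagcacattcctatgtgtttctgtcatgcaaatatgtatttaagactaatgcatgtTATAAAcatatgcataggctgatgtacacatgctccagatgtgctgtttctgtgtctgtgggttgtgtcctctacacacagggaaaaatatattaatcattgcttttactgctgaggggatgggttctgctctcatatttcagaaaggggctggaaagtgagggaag
Col4a1: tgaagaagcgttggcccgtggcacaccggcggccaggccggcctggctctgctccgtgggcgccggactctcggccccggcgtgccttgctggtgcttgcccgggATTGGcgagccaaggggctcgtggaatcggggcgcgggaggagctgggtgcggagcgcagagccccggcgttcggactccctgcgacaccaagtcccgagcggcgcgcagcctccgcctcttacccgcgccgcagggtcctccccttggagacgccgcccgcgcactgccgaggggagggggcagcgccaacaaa
Col4a2: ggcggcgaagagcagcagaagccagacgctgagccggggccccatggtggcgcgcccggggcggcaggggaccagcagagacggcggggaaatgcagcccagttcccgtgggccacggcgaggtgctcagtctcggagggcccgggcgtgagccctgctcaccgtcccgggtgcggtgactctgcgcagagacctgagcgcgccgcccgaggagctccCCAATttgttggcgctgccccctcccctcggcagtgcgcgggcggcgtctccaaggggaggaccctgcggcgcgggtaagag

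*Col4a1* and *Col4a2*, whose products form the common triple helix of basement membranes, are transcribed away from each other, and their windows share 78 bases. Each of the pair holds 1 CCAAT, 145 bases before the start in *Col4a1* and 32 bases before it in *Col4a2*, at different places in the genome. *Col1a2* holds CCAAT 109 bases before its start and, on the opposite strand, at the start itself. *Col3a1* holds TATAAA 117 bases before its start. A CCAAT stood in 37.4% and a TATAAA in 13.6% of all 32851 windows of this length. Of 42 windows of 35 members, 15 held CCAAT (35.7%) and 8 held TATAAA (19%).

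Across the 9 lungs, the log2 signals of *Col4a1* and *Col4a2* spanned 1.01 and 0.88, and after each was centred on its own mean they were at most 0.24 apart in any lung. *Col1a2* and *Col3a1*, which encode chains of type I and type III collagen and lie on different chromosomes, spanned 1.88 and 2.86 and were at most 0.68 apart. *Col1a1* and *Col1a2* were at most 0.63 apart, *Col4a3* and *Col4a4* 0.57, *Col6a1* and *Col6a2* 0.33, and *Col1a2* and *Col4a1* 1.09. These points share 9 libraries, and the pairs are given as a description.

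None of the 58 genes was called in any comparison. A gene was called against sham at an adjusted p under 0.05 from limma with a change of at least 2-fold, and between OB and non-OB at that adjusted p alone, with Benjamini-Hochberg adjustment over all 56601 probes. Against this, the calls in OB against sham took in 3.82% of all named genes on the high side and 3.73% on the low side. In non-OB against sham these shares were 2.52% and 1.13%, and between OB and non-OB lungs both were 0%. Among named genes well above background on all 9 arrays, the shares were 4.82% and 4.77% in OB against sham and 3.09% and 1.25% in non-OB against sham. The median log2 change of the 58 genes was -0.12 in OB against sham, -0.05 in non-OB against sham and -0.04 in OB against non-OB, and over all named genes it was -0.05, -0.01 and -0.04. In each comparison 27 members had a change above 0, beside 46.5%, 49.5% and 35.5% of all named genes. The comparisons with sham share the same 3 sham lungs.

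Calls over the whole array depended on how slides were treated, and slides were not balanced over the groups. In OB against sham 1539 probes were called higher and 1376 lower, but with slide as a fixed block only 4 and 0, and in non-OB against sham 1027 and 402 against 0 and 0. In the fixed-block fit sham 3, alone on slide 4, added nothing to the comparison, and sham lungs were reached only through slide 1. Fewer calls there can come from low precision or from slides, which cannot be told apart. With slide as a random block the OB counts were 1983 and 2161. No member was called in any of these fits, and with the fixed block that says little. The intervals were wide, and in OB against sham the interval of 45 of the 58 genes reached a 2-fold difference in at least 1 direction, so a missing call does not show that a gene was level.

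**Figure D1:**
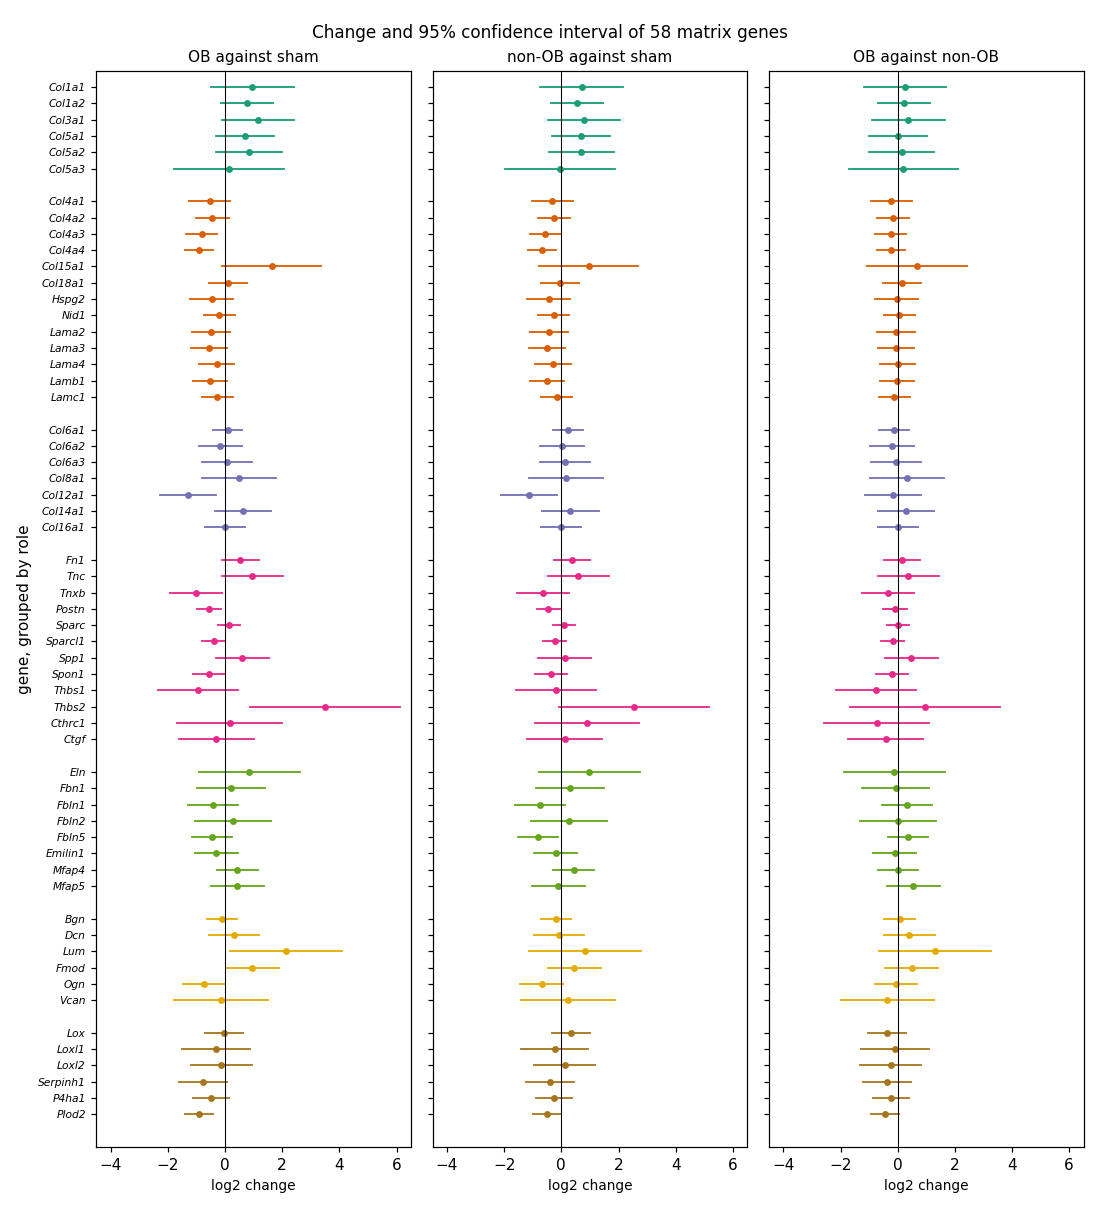
Log2 change (point) and 95% confidence interval from limma (line) of each of the 58 genes in the 3 comparisons, with 3 lungs in each group and genes grouped and coloured by role. The intervals of *Thbs2* and *Lum* in OB against sham are among the widest, and most intervals cross 0.

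The fibrillar collagens were all placed above sham by their mean in OB lungs, beside 46.5% of all named genes, but none passed the test. Their median log2 change was 0.80 in OB against sham and 0.69 in non-OB against sham, and it was 0.21 in OB against non-OB. *Col1a1*, the major chain of type I collagen, was at 14.59, 15.68 and 13.65 on the scaled log2 scale in OB 1, OB 2 and OB 3. It was at 15.46, 14.09 and 13.61 in the non-OB lungs and at 13.05, 13.91 and 14.08 in the sham lungs. The groups overlapped, since OB 3 and non-OB 3 lay below sham 2 and sham 3. The means were 14.64 ± 1.02 in OB, 14.39 ± 0.96 in non-OB and 13.68 ± 0.55 in sham lungs (SD, n = 3 each), a log2 change of 0.96 (95% confidence interval -0.48 to 2.40, adjusted p = 0.397) in OB against sham.

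*Col1a2*, the partner chain of type I collagen, was at 16.23, 17.17 and 15.78 in OB, at 16.66, 16.12 and 15.75 in non-OB and at 15.30, 15.60 and 15.98 in sham lungs. Its log2 change in OB against sham was 0.77 (-0.14 to 1.68, adjusted p = 0.341). *Col3a1*, the chain of type III collagen, which is prominent in young scar tissue, was at 15.16, 16.16 and 14.43 in OB, at 15.56, 14.85 and 14.23 in non-OB and at 13.30, 14.27 and 14.72 in sham lungs. Again OB 2 was the highest and sham 1 the lowest of all 9. The log2 change of *Col3a1* was 1.16 (-0.11 to 2.43, adjusted p = 0.301). *Col5a1* and *Col5a2*, whose products initiate and limit the width of type I fibrils, had log2 changes of 0.70 and 0.84, and *Col5a3*, of the same family, one of 0.15, and none of these passed the test (adjusted p from 0.373 to 0.933).

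**Figure D2:**
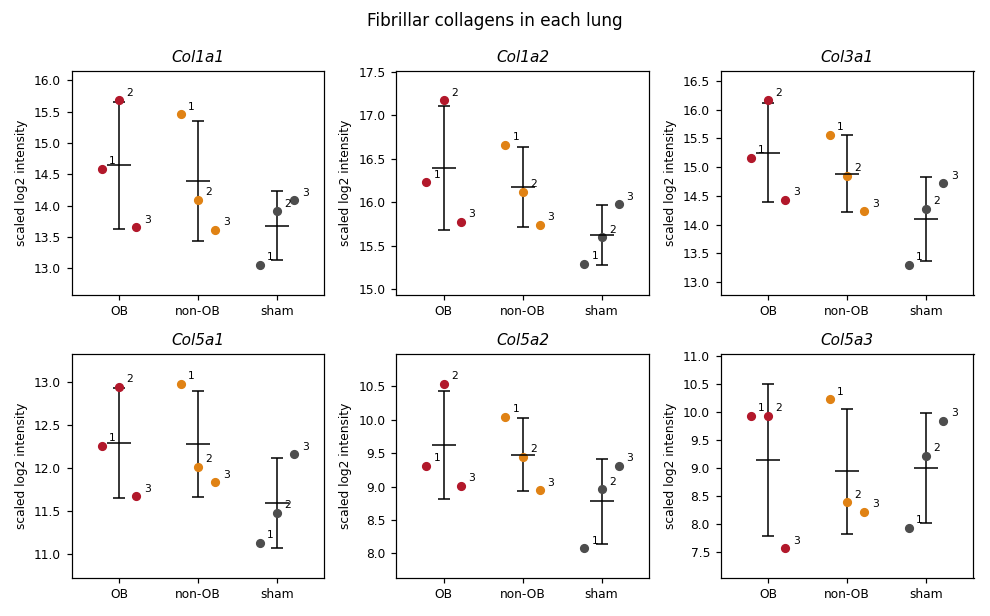
Scaled log2 intensity of the 6 fibrillar collagens in each lung (points, with the replicate number), with the mean and SD of each group of 3 lungs as a bar and whiskers. In *Col1a1*, *Col1a2*, *Col3a1* and *Col5a2* the highest lung is OB 2 and the lowest is sham 1.

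The 2 lungs that set the extremes carried much of this difference. By the supplementary picture sham 1 was the only sham lung of the donor strain, so strain and single lung cannot be told apart. Without OB 2 the median change of the fibrillar collagens in OB against sham was 0.38, without sham 1 it was 0.54, and with both left out it was 0.14. With sham 1 as the only control it was 1.38, and with slide as a fixed block 1.47. The median in non-OB against sham was 0.32 without non-OB 1 and 0.39 without sham 1. The median in OB against non-OB turned to -0.23 without OB 2, with 0 of 6 genes above 0, and to -0.13 without non-OB 3, and it was 0.64 without OB 3. Relative to the mean of the sham lungs, the median fibrillar collagen was 0.79 higher on the log2 scale in OB 1, 1.65 in OB 2 and 0.12 in OB 3. It was 1.33 higher in non-OB 1, 0.46 in non-OB 2 and 0.13 in non-OB 3. Sham 1 differed by -1.0 from the mean of the other sham lungs and sham 3 lay 0.82 above it. Lungs of either graft group therefore ranged from near the sham level to well above it.

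Values within a slide pointed different ways. OB 1 shared slide 1 with non-OB 1 and both sham 1 and sham 2. OB 2 was paired with non-OB 3 on slide 2 and OB 3 with non-OB 2 on slide 3, while sham 3 was alone on slide 4. On slide 1 the median fibrillar collagen was 1.03 higher in OB and 1.67 higher in non-OB than in the sham lungs. OB minus non-OB was -0.57 on slide 1, 1.66 on slide 2 and -0.43 on slide 3. For all 58 genes the same difference was -0.37, 0.72 and -0.37, with 13, 49 and 3 genes above 0.

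Basement membrane genes lay mostly the other way. In OB against sham, 11 of 13 had a negative change (median -0.47), and in non-OB against sham 12 of 13 (median -0.31). Over all named genes, 46.5% and 49.5% had a change above 0. On the low side 3 of 13 did not overlap sham in OB and 5 of 13 in non-OB. Among named genes well above background on all 9 arrays these shares were 32.8% and 26.5%. The OB lungs were not alike in direction. Relative to the sham mean, the median was -0.78 in OB 1 and -0.57 in OB 3. In OB 2 it was 0.12, with 10 of 13 genes above 0. In non-OB 1, non-OB 2 and non-OB 3 it was -0.21, -0.31 and -0.45. Without OB 2 the median change of the 13 genes in OB against sham was -0.70. *Col4a4* and *Col4a3*, which encode chains of the specialised type IV collagen of thin alveolar membranes and lie next to each other, had the smallest p-values of the group. *Col4a4* was at 9.0, 9.50 and 9.44 in OB, at 9.46, 9.44 and 9.74 in non-OB and at 10.05, 10.11 and 10.51 in sham lungs. All 6 grafts lay below all 3 sham lungs. Its log2 change was -0.91 in OB (-1.41 to -0.41, adjusted p = 0.0493), under 2-fold and so not called, and -0.68 in non-OB (adjusted p = 0.17).

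*Col4a3* was at 10.10, 9.96 and 10.40 in OB, at 10.12, 10.82 and 10.27 in non-OB and at 11.10, 10.82 and 10.98 in sham lungs, a change of -0.81 in OB (adjusted p = 0.09). Only the OB lungs were separate from the sham lungs, since non-OB 2 reached the level of sham 2. *Col4a1* and *Col4a2* had log2 changes of -0.54 and -0.44 in OB (adjusted p = 0.372 for each). The laminin chains *Lama2*, *Lama3*, *Lama4*, *Lamb1* and *Lamc1*, which assemble into the cell-binding network of the membrane, had changes between -0.56 and -0.27 in OB and between -0.51 and -0.16 in non-OB, with no call. A second probe of *Lama3* gave -0.76 in OB against sham (adjusted p = 0.0376), also under 2-fold. *Hspg2*, which encodes perlecan, and *Nid1*, which encodes nidogen, a linker of laminin to type IV collagen, had log2 changes of -0.47 and -0.21. *Col15a1* was well above background in 2 OB, 2 non-OB and 1 sham lung, and its change of 1.63 had an interval from -0.11 to 3.37.

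Among the remaining collagens, *Col12a1*, which decorates the surface of fibrils, was the lowest against sham. It was at 8.66, 8.33 and 6.91 in OB, at 8.25, 8.32 and 7.81 in non-OB and at 9.52, 9.17 and 9.09 in sham lungs, with no overlap between grafts and sham lungs. The log2 change was -1.29 in OB (-2.28 to -0.30, adjusted p = 0.138) and -1.14 in non-OB (adjusted p = 0.24). With OB 3 left out, the change in OB was -0.76. The beaded-filament chains *Col6a1*, *Col6a2* and *Col6a3* had log2 changes of 0.09, -0.16 and 0.06 in OB, *Col8a1* one of 0.49, *Col14a1* one of 0.61 and *Col16a1* one of 0.00.

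*Thbs2*, a matricellular protein that binds cells and regulates fibril assembly, had the largest fitted log2 change of the 58, a value that rests in part on a dim sham array. It was at 8.38, 9.06 and 5.48 in OB, at 7.21, 7.28 and 5.55 in non-OB and at 2.10, 5.02 and 5.34 in sham lungs, where it was well above background on 2 of 3 arrays. All grafts lay above all sham lungs, OB 3 and non-OB 3 only narrowly, and the signal of sham 1 was below the lowest log2 signal well above background on that array, 4.17, so the change is no exact fold. The log2 change was 3.48 in OB (0.86 to 6.11, adjusted p = 0.132) and 2.53 in non-OB (adjusted p = 0.308), and in OB it was 2.46 without sham 1, 1.75 with OB 2 and sham 1 left out, and 1.36 with normexp and quantile normalization, where *Lum* was at 2.04. *Thbs1*, its relative and an activator of TGF-β, was at 11.90, 10.98 and 10.18 in OB, at 12.48, 11.90 and 10.93 in non-OB and at 12.94, 11.60 and 11.34 in sham lungs. The groups of *Thbs1* overlapped, and its change in OB was -0.94 (adjusted p = 0.394).

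*Fn1*, which encodes fibronectin, an early scaffold of scar tissue, was at 14.93, 15.87 and 14.97 in OB, at 15.24, 15.15 and 14.93 in non-OB and at 14.59, 14.67 and 14.90 in sham lungs. All grafts were above all sham lungs, but OB 1, OB 3 and non-OB 3 lay close to sham 3, and the change in OB was 0.54 (adjusted p = 0.335). *Tnc*, tenascin C, which appears in remodelling tissue, was at 6.98, 8.00 and 5.91 in OB, at 6.89, 6.44 and 6.46 in non-OB and at 6.04, 5.87 and 6.12 in sham lungs. The non-OB lungs were above the sham lungs, whereas OB 3 lay among them. *Postn*, periostin, a matricellular protein of fibrotic tissue, was at 12.28, 12.29 and 12.15 in OB, at 12.39, 12.49 and 12.15 in non-OB and at 13.00, 12.69 and 12.71 in sham lungs. Every graft was below every sham lung, with changes of -0.56 in OB (adjusted p = 0.121) and -0.46 in non-OB (adjusted p = 0.25), and the 2 other *Postn* probes gave -0.58 and -0.70 in OB.

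*Spp1*, osteopontin, which macrophages make, was at 13.52, 12.44 and 12.95 in OB, at 11.78, 12.52 and 13.20 in non-OB and at 12.59, 12.13 and 12.41 in sham lungs, overlapping throughout. *Ctgf*, a TGF-β target, was highest in sham 1 at 15.25 and lay between 13.24 and 14.80 in the other 8 lungs. Its change was -0.30 in OB with all sham lungs and 0.29 without sham 1. *Tnxb*, tenascin X, which spaces collagen fibrils, had a log2 change of -1.0 (-1.91 to -0.10, adjusted p = 0.205) in OB, and *Sparc*, *Sparcl1*, *Spon1* and *Cthrc1* had log2 changes of 0.13, -0.40, -0.56 and 0.16.

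Of the elastic fibre genes, 5 of 8 were above sham by their OB mean (median 0.25), beside 46.5% of named genes, and none was called. The direction rested on single lungs, as the median was -0.24 without OB 2, with 2 of 8 genes above 0, 0.02 without sham 1, and -0.53 with both left out, with 0 of 8 above 0. *Eln*, elastin, was at 10.98, 12.93 and 11.02 in OB, at 12.79, 11.59 and 10.92 in non-OB and at 9.48, 11.34 and 11.57 in sham lungs. OB 2 and non-OB 1 were high and sham 1 was low, and the change of 0.85 in OB (-0.91 to 2.61, adjusted p = 0.548) became -0.45 with OB 2 and sham 1 left out. *Mfap5*, a microfibril protein, was at 13.04, 14.56 and 13.18 in OB, at 13.07, 13.39 and 12.69 in non-OB and at 13.07, 13.07 and 13.35 in sham lungs. OB 2 alone stood out in *Mfap5*, and its change of 0.54 in OB against non-OB was 0.06 without that lung. *Fbln1* and *Fbln5*, fibulins that help elastin assemble, were lower in all 3 non-OB lungs than in any sham lung (changes of -0.75 and -0.81, adjusted p = 0.361 and 0.236).

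*Lum*, lumican, a small proteoglycan that limits fibril width, had the second largest fitted change. It was at 12.18, 12.68 and 9.93 in OB, at 10.31, 11.51 and 9.03 in non-OB and at 8.56, 9.89 and 9.92 in sham lungs. OB 1 and OB 2 were far above the sham lungs and OB 3 was level with sham 3. The log2 change was 2.14 in OB against sham (0.18 to 4.10, adjusted p = 0.212) and 1.31 in OB against non-OB (-0.65 to 3.27, adjusted p = 1). *Fmod*, fibromodulin, of the same family, had a log2 change of 0.95 in OB (0.03 to 1.87, adjusted p = 0.24), and *Ogn*, osteoglycin, one of -0.74 (adjusted p = 0.251). *Dcn*, *Bgn* and *Vcan*, which encode decorin, biglycan and versican, had log2 changes of 0.32, -0.12 and -0.13.

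All 6 folding and crosslinking enzymes had a negative change in OB against sham (median -0.40), while 46.5% of named genes were above 0. However, 2 of 6 were above 0 without OB 3 (median -0.20) and with slide as a fixed block (median -0.29). Without OB 2 the median was -0.66. *Plod2*, the lysyl hydroxylase that prepares the telopeptides of collagen for stable crosslinks, was at 8.79, 8.87 and 8.27 in OB, at 8.97, 9.19 and 9.08 in non-OB and at 9.57, 9.39 and 9.75 in sham lungs. The 3 groups followed one another without overlap, OB lowest and sham highest. The changes were -0.93 in OB against sham (-1.41 to -0.44, adjusted p = 0.0434), under 2-fold and so not called, -0.49 in non-OB against sham (adjusted p = 0.292) and -0.44 in OB against non-OB (-0.93 to 0.05, adjusted p = 1). With any single array left out, the adjusted p in OB against sham of *Plod2*, as of *Col4a4*, was no longer under 0.05. *Serpinh1*, the collagen chaperone HSP47, and *P4ha1*, a prolyl hydroxylase subunit, had log2 changes of -0.78 and -0.49 in OB. *Lox*, the lysyl oxidase, lay between 11.09 and 11.49 in OB and between 11.08 and 11.75 in sham lungs, which overlapped, and in non-OB lungs its mean was 11.68 ± 0.46 (SD, n = 3), and *Lox*, *Loxl1* and *Loxl2* had log2 changes of -0.04, -0.32 and -0.13 in OB.

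**Figure D3:**
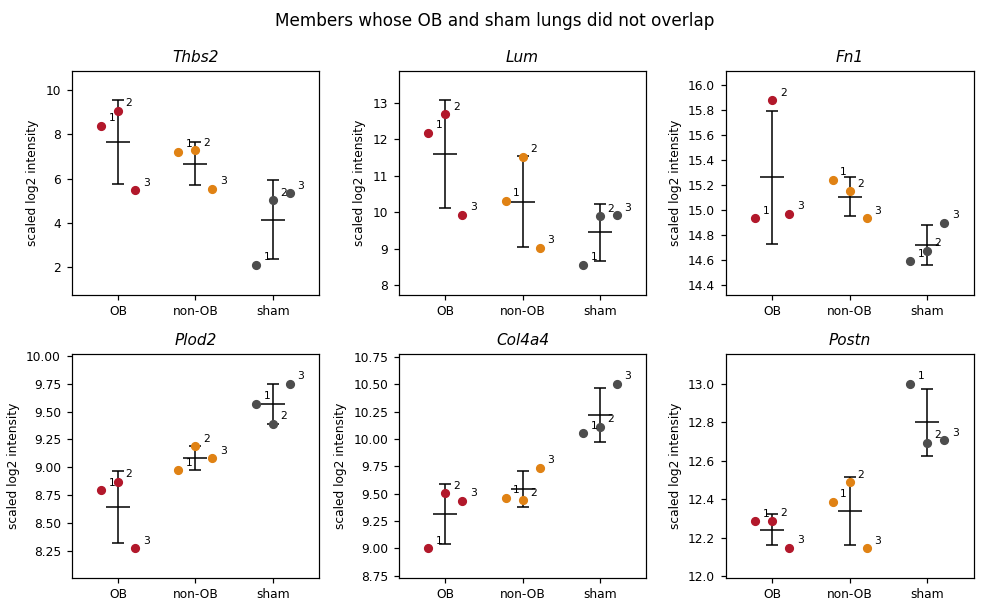
Scaled log2 intensity of 6 members whose OB lungs did not overlap the sham lungs, in each lung (points, with the replicate number), with mean and SD of 3 lungs. *Thbs2*, *Lum* and *Fn1* lie higher and *Plod2*, *Col4a4* and *Postn* lower in OB than in sham lungs.

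In OB against sham, 5 members did not overlap on the high side and 11 on the low side, beside 19.9% and 23.4% of all named genes, and 12.6% and 32.8% of those well above background on all 9 arrays. In non-OB against sham the counts were 3 and 11, beside 15.5% and 19%, and 11.7% and 26.5%. In OB against non-OB, none lay higher and 1 lower, *Plod2*, beside 1.43% and 3.59%. At an unadjusted p under 0.05, 3 members stood above and 8 below sham in OB lungs, beside 9.58% and 16.3% of named genes. Among named genes well above background on all 9 arrays these shares were 10.1% and 22.1%. In non-OB against sham none was higher and 6 were lower, beside 9.63% and 12.1%, and 8.95% and 16.2%. No member reached that level in OB against non-OB, beside 0.694% and 1.55%.

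The spread between lungs of a group was wide for many of these genes. The median range over the 3 lungs was 1.18 on the log2 scale in OB, 0.70 in non-OB and 0.45 in sham lungs for the 58 genes, and 0.44, 0.47 and 0.33 for the 14746 named genes well above background on all 9 arrays. The median standard error in OB against sham was 0.37 for the 58 genes and 0.23 for those named genes. OB lungs differed by 2-fold or more in 35 of 58 genes (60.3%) and in 14.3% of those named genes. Among the roles, the fibrillar collagens had the widest median range in OB (1.63), and the folding and crosslinking enzymes the narrowest (0.80).

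OB 2 was the highest of the 9 lungs in 29 of 58 genes (50%), and in 11.4% of the named genes above background. OB 3 was the lowest in 22 (37.9%, against 9.15%), and sham 1 in 14 (24.1%, against 12%). Within the OB group, OB 2 was highest in 49 of 58 genes (84.5%, against 45.3%). Relative to the sham mean, 17 members (29.3%) were at least 2-fold higher in OB 2, 5 (8.62%) in OB 1 and 1 (1.72%) in OB 3, beside 12.7%, 7.5% and 9.64% of all named genes. In non-OB 1, non-OB 2 and non-OB 3 they were 10 (17.2%), 4 (6.9%) and 2 (3.45%), beside 7.6%, 8.87% and 14.4%. At least 2-fold below the sham mean were 4, 1 and 10 members in OB 1, OB 2 and OB 3 (9.74%, 9.41% and 9.4% of named genes) and 2, 1 and 3 in the non-OB lungs (9.74%, 5.3% and 5.88%). The median of all 58 was 0.34 in OB 2, -0.13 in OB 1 and -0.47 in OB 3. In the same lungs, the median of 7 airway epithelial markers was -2.82 in OB 2, -1.0 in OB 1 and -1.19 in OB 3. That of 9 cartilage markers, of which 4 were not well above background on any array, was 1.10, 0.67 and 0.39. In non-OB 1, non-OB 2 and non-OB 3 the median of all 58 was 0.05, -0.08 and -0.25. There the airway median was -1.59, -0.70 and -1.95 and the cartilage median -0.26, 0.73 and 0.57, neither in the order of the matrix genes. In the OB lungs the airway median was not in that order either, while the cartilage median was. The part of these markers in the spread of the matrix genes was not tested.

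**Figure D4:**
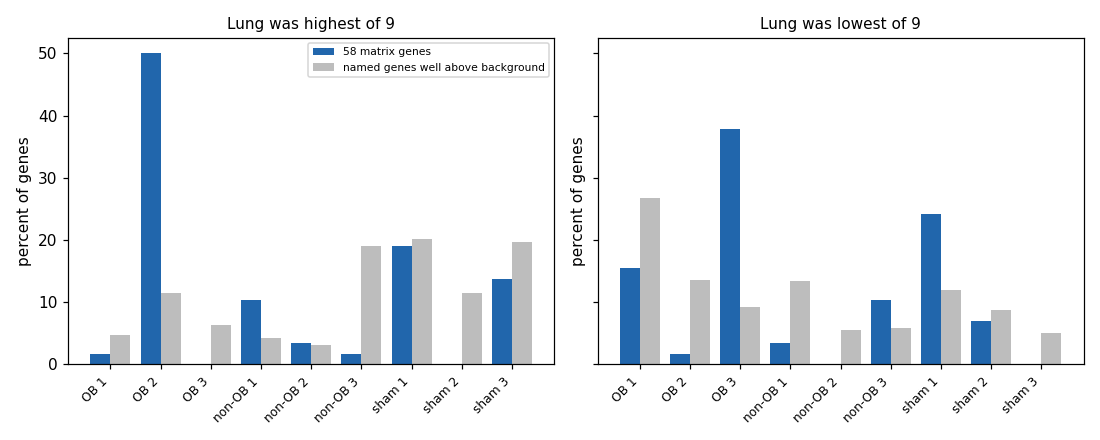
Percent of genes in which each lung was the highest (left) or the lowest (right) of 9, for the 58 matrix genes (blue) and for 14746 named genes well above background on all arrays (grey). OB 2 stands out as highest and OB 3 as lowest among the matrix genes.

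**Figure D5:**
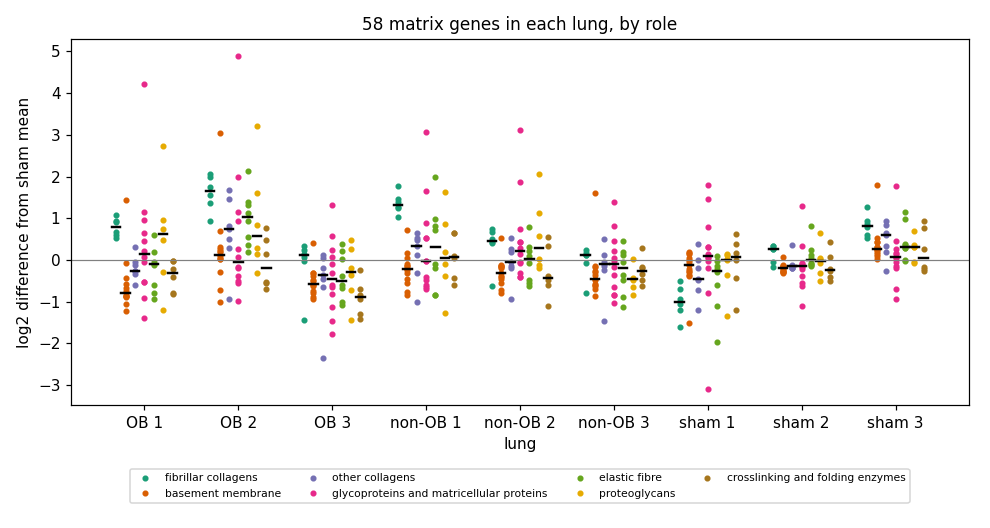
Log2 difference of each of the 58 genes from the mean of the sham lungs, by lung, with each sham lung set against the other sham lungs (points, coloured by role, and black lines for the median of each role). The fibrillar collagens are highest in OB 2 (median 1.65) and non-OB 1 (1.33) and lowest in sham 1 (-1.0).

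Other matrix genes, listed beside the members, did include calls. The shares to be read beside calls without a slide term, over all named genes, are 3.82% higher and 3.73% lower in OB against sham. In non-OB against sham they are 2.52% and 1.13%. With slide as a fixed block none of the other matrix genes was called. Over the whole array that fit called 4 probes in OB and 0 in non-OB, so the loss is not particular to these genes. With slide as a random block, 3 further collagens were called higher and 2 lower in OB. The counts were 3 and 6 for the further glycoproteins and proteoglycans, 0 and 3 for collagen processing genes and 1 and 3 for matrix receptors. That fit called 1983 probes higher and 2161 lower of all 56601, and its share over named genes was not computed. Without a slide term, of 24 further collagens 2 rose and 2 fell in OB against sham, and 1 rose and 0 fell in non-OB. *Col6a5*, a chain of type VI collagen, rose by 2.81 on the log2 scale (adjusted p = 0.0278), and *Col4a6*, a chain of type IV collagen, fell by 1.27 (adjusted p = 0.0114). Of 39 further glycoproteins and proteoglycans, 2 rose and 4 fell in OB, and 2 rose and 0 fell in non-OB. *Thbs4*, a thrombospondin like *Thbs2*, rose by 3.92 (adjusted p = 0.0103) with 1 of 3 sham arrays well above background, and *Lamc3*, a laminin chain, fell by 1.44 (adjusted p = 0.0262). Of 24 collagen processing genes none rose and 3 fell, led by *Colgalt2*, a collagen galactosyltransferase (-2.15, adjusted p = 0.00444), and of 25 matrix receptors 1 rose and 3 fell. In non-OB lungs 1 collagen processing gene fell and 1 matrix receptor rose.

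Markers of cells that make matrix also included calls. The fibroblast list shared *Dpt* and *Npnt* with the further glycoproteins and proteoglycans, so the counts of these lists are not separate. In OB against sham, 8 of 10 smooth muscle markers, 9 of 12 endothelial markers and 2 of 13 fibroblast markers fell, and 1 fibroblast marker rose. In non-OB against sham, 0, 3 and 0 of these markers fell and 1 fibroblast marker rose, with median log2 changes of -0.98, -0.96 and -0.67. With slide as a fixed block none of these markers was called in either graft group. With slide as a random block 8, 9 and 5 fell in OB and 2 fibroblast markers rose. That fit called 1983 of 56601 probes higher and 2161 lower in OB against sham. The median log2 changes in OB were -1.41, -1.38 and -0.92 with the fixed block, beside -1.53, -1.36 and -0.57 without a block. Linear intensities of each marker list were also summed and put on the log2 scale, so the brightest markers weigh most. For smooth muscle these values ran from 14.93 to 15.45 in OB, 15.73 to 15.80 in non-OB and 16.60 to 16.89 in sham. Those of the endothelial markers ran from 16.99 to 17.24, 17.35 to 17.68 and 18.39 to 18.72. Those of the fibroblast markers ran from 16.62 to 17.29, 16.55 to 17.44 and 17.81 to 17.92. Of 10 macrophage markers 5 rose in OB and 4 in non-OB, and of 7 T cell markers with a probe, of 8 listed, 6 and 3. None of these was called with slide as a fixed block, and in OB 5 and 6 rose with slide as a random block. Of 7 alveolar type 2 markers, which mark lung tissue, none was called in either graft group. No marker with a probe in these lists was below background on every array, and their part in the values of the 58 genes was not tested.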

How the data were processed

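RNA from 9 left lungs was labelled with 1 dye and hybridised to 1 array each. The authors extracted the scans with Agilent Feature Extraction 12.0.3.1 and deposited background-subtracted, detrended intensities, and they also deposited a table of intensities scaled to a mean of 2500 after trimming 2% at each end. Here the scaled values were recomputed from the deposited intensities (factors 1.24 to 2.05), control spots and outlier spots (53 to 111 an array) were left out, and log2 values were averaged over spots of a probe. Between 58.6% and 69.6% of probes were well above background on an array, and the number of arrays limits the precision. No non-control spot was saturated.

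All 9 arrays entered 1 linear model per probe with a term for each group, fitted and moderated by lmFit and eBayes of limma 3.58.1 (R 4.3.3), and p-values were adjusted by Benjamini-Hochberg over 56601 probes. Accessions were looked up in the RefSeq gene table of GRCm38.p6, where 32991 probes found 22909 genes, and no coordinates of the arrays' own build are given. Where a gene had several probes, the brightest on average stood for it. The other 28 probes of 24 members had the sign of the chosen probe in 25 cases in OB against sham, and none was called. Python 3.11.15, numpy 2.4.6 and pandas 2.3.3 were used beside it.

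The members and lists were chosen with earlier results of these data known. Named members were 10 fixed genes, the 5 with the smallest p in OB against non-OB, and 10 with the smallest p in OB against sham, the last chosen after their values were seen, and further members are given by role. P-values set each difference against the spread between lungs of a group, shared over the groups and moderated over probes. Differences between slides, and between strains of the sham lungs, can be part of that spread. Alternatives were other scalings and background corrections, a filter on dim probes, slide and replicate blocks, other spread models and controls, leaving out single arrays, and the methods' t-test.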

Additional observations from a re-analysis of the deposited data

How the results depend on the processing

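No member was called higher in any of the 3 comparisons under any alternative. With the adjusted p alone, 2 members were called lower in OB against sham, *Col4a4* and *Plod2*. The share of all genes at this rule was not computed, so the count is no result about the members as a set. Over the alternatives the count ran from 0 to 4. It was 0 with any array left out, with slide as a fixed block and with the replicate block. With only the groups compared, and with the mean over all probes of a gene, it was also 0. With the methods' t-test and its 2-fold threshold, 1 member was called lower in non-OB against sham, *Col12a1*, and none after Benjamini-Hochberg adjustment. Beside it, the same unadjusted rule called 1405 of all 56601 probes lower. Leaving out each array in turn gave 0 to 0 calls in each direction and comparison, and so did the fit with replicate number as a block, which gave 0 calls. The replicate numbers do not pair the arrays, since correlations of same-numbered deviations ran from -0.398 to 0.283.

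The median log2 change of the 58 genes ran from -0.44 to 0.13 in OB against sham, from -0.15 to 0.05 in non-OB against sham and from -0.30 to 0.14 in OB against non-OB, so its sign depends on the setting. It was -0.33 without OB 2, 0.13 without OB 3 and -0.44 with OB 2 and sham 1 left out together, a setting chosen after seeing the data. The median of the fibrillar collagens in OB against sham was above 0 in all 23 fits compared (0.14 to 1.47). That of the basement membrane genes was below 0 (-0.70 to -0.28), with the mean over all probes of a gene not among the fits. That of the elastic fibre genes changed sign (-0.53 to 0.49), as did that of the proteoglycans (-0.13 to 0.65). Many of these fits could not move the medians. The authors' table, the replicate block, the t-test, another spread model or leaving out a non-OB array keeps the OB and sham means. *Thbs2* had a log2 change of 1.36 with normexp and quantile normalization and 4.72 with slide as a fixed block. Signals near background, as for *Thbs2* and *Col15a1* in sham lungs, are measured less well, and 3 lungs a group bound every interval.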
